A study of Oryza sativa with 6 samples.

Results

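The BAHD acyltransferases examined here are the 137 of 56962 genes in the deposited rice count table that carry the description "Transferase" and nothing else, the domain-database name of the plant acyltransferase family. They were measured by RNA sequencing of root tips of rice (Oryza sativa) seedlings of the mutant lad, also named sr1, and of the wild type J10, with 3 libraries of each genotype. Every library was made from root tips of 0.5 cm, taken from seedlings grown for 6 days at 25°C, and the labels name no further treatment. The series title ties the gene SHORT-ROOT 1 to cell division and to tracheary elements, the cells that carry water through a root. The labels do not give the mutated locus, the kind of allele or the number of seedlings per library, nor do they say whether libraries of a genotype came from separate cultures, so p-values measure the spread between these libraries, which may be technical.

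BAHD enzymes move an acyl group from a coenzyme A thioester to a hydroxyl or amine group of an acceptor. They are known for the hydroxycinnamoyl esters of lignin synthesis, for ferulate and coumarate bound to grass cell walls, for aromatic esters in suberin and waxes, for amides of polyamines and agmatine made in defence, and for acylated flavonoids and terpenoids. The family is defined by conserved HxxxD and DFGWG motifs, and relatives of similar sequence can use different donors and acceptors. The deposited table gives no substrate or gene name for any of the 137 genes, holds no sequence, and shares 0 of their identifiers with the RefSeq gene table, so genes are named by locus identifier and ordered by level and change. The family label rests on the description alone.

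Gene counts summed to between 16405022 and 18816338 in mutant libraries and between 19030866 and 20693114 in wild type libraries. Across all genes the first principal component separated the genotypes and held 82.4% of the variance. Mutant libraries held counts for 26920 to 27553 genes, against 25401 to 25728 in the more deeply sequenced wild type libraries. Of 37 photosynthesis genes matched by description, markers of green tissue, 17 had 0 counts in all 6 libraries. Their CPM, counts scaled to a common library size, summed to 23.5 to 30.7 in mutant libraries and 22.8 to 24.5 in wild type libraries, and of the 6 tested 0 were called by edgeR, DESeq2 or limma voom. At an unadjusted p below 0.05 edgeR passed 1, and DESeq2 and limma voom 0. Description patterns for root cap, Casparian strip and grain storage proteins matched no gene, so those cell types were not examined. In such bulk samples fewer cells of a type and less RNA per cell cannot be told apart.

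Higher transcript levels in the mutant were the common change in the family. Of the 137 genes, 56 had enough counts to be tested, 39 had counts but were not tested, and 42 had 0 counts in all 6 libraries. Among the 56 tested, 37 rose, 2 fell and 17 did not pass (edgeR quasi-likelihood test, Benjamini-Hochberg adjusted p below 0.05 over all 22624 tested genes). That is 66.1% higher and 3.57% lower among the tested acyltransferases, against 24.9% higher and 20.3% lower, 45.2% in all, over all tested genes. The median log2 fold change, mutant over wild type, was 1.11 for the tested acyltransferases and 0.02 for all tested genes. Increases of 4-fold or more were called for 18 of the 56 genes, beside 8.37% of all tested genes, and increases of 2-fold or more for 30 of the 56, beside 15.2%. A decrease of 2-fold or more was called for 1 of the 56, beside 4.73% of all tested genes. Mutant and wild type libraries did not overlap in level for 40 of the 56, against 56.8% of all tested genes.

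These shares depend in part on which genes reached the count filter, because a gene nearly silent in wild type could pass it only through its mutant libraries. Of the 56 tested genes, 19 had a wild type mean below 1 CPM, and 15 of those were among the 37 higher (78.9%), against 56.7% higher among all tested genes at that wild type level. None of the 19 was lower, against 1.13% of all tested genes there. Of the 18 genes at least 4-fold higher, 14 belonged to these 19, and at that level 47.6% of all tested genes were also at least 4-fold higher. Among the 37 acyltransferase genes with a wild type mean of at least 1 CPM, 22 rose and 2 fell, which is 59.5% and 5.41%. Over all genes with that wild type mean 20.9% were higher and 22.7% lower. Rises of 4-fold or more numbered 4 of these 37 genes, against 3.36% of all such genes. A mean of 1 CPM was reached by 16 acyltransferase genes in the mutant alone, 0 in wild type alone and 37 in both genotypes. Over all genes the counts were 1723 in the mutant alone, 521 in wild type alone and 19551 in both. The split by wild type level was added after the data had been seen.

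**Figure D1:**
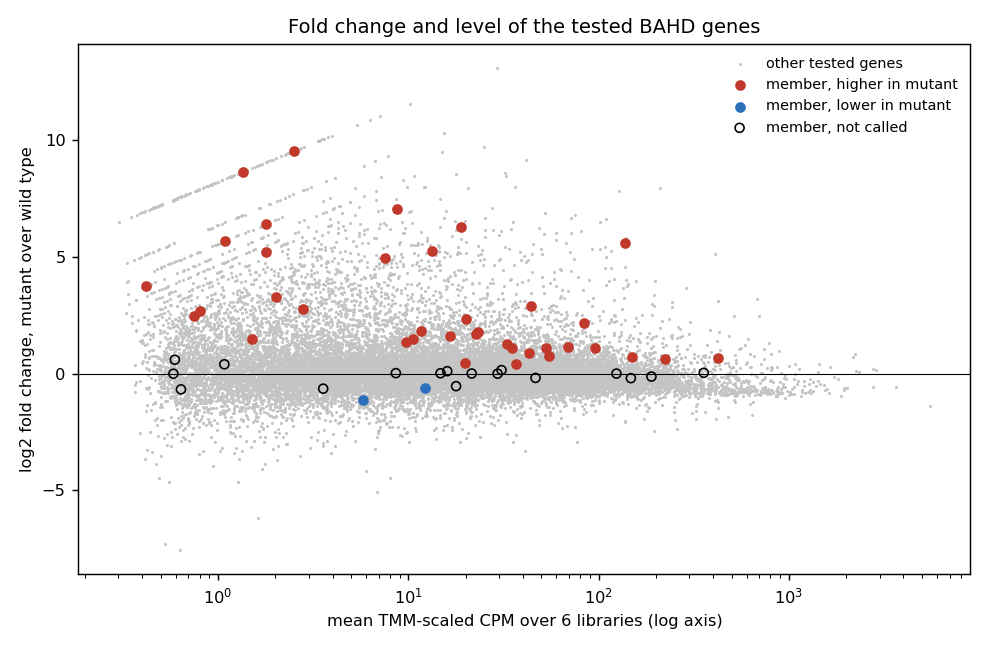
Log2 fold change (mutant over wild type, vertical axis) against mean TMM-scaled CPM over the 6 libraries (log axis) for the 56 tested acyltransferase genes and for all other tested genes in grey. The 37 higher genes span the whole range of levels, the 2 lower genes lie at low to middle levels, and for genes with 0 wild type counts the plotted fold depends on the fit's prior count and is no measured size.

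The summed level of the family was also higher in the mutant. Scaled by TMM, which equalises libraries on the bulk of their genes, the 137 genes together reached 3549, 3026 and 3516 CPM in mutant replicates 1, 2 and 3, against 2215, 1956 and 2051 CPM in wild type replicates 1, 2 and 3. The groups did not overlap, and the mean of 3364 ± 293 CPM in the mutant was 1.62 times the mean of 2074 ± 131 CPM in wild type (SD, n = 3 each). The family took 0.310 to 0.369% of counts in mutant libraries and 0.181 to 0.224% in wild type libraries. One gene, LOC_Os10g35950, made up 20.6% of the net difference in summed CPM, and 5 genes together made up 57.0%. Without LOC_Os10g35950 the ratio of the sums was 1.49. Mutant replicate 2 gave the lowest of the 3 mutant values for 25 of the 37 higher genes. Without that library 36 genes of the family were called higher and 2 lower.

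**Figure D2:**
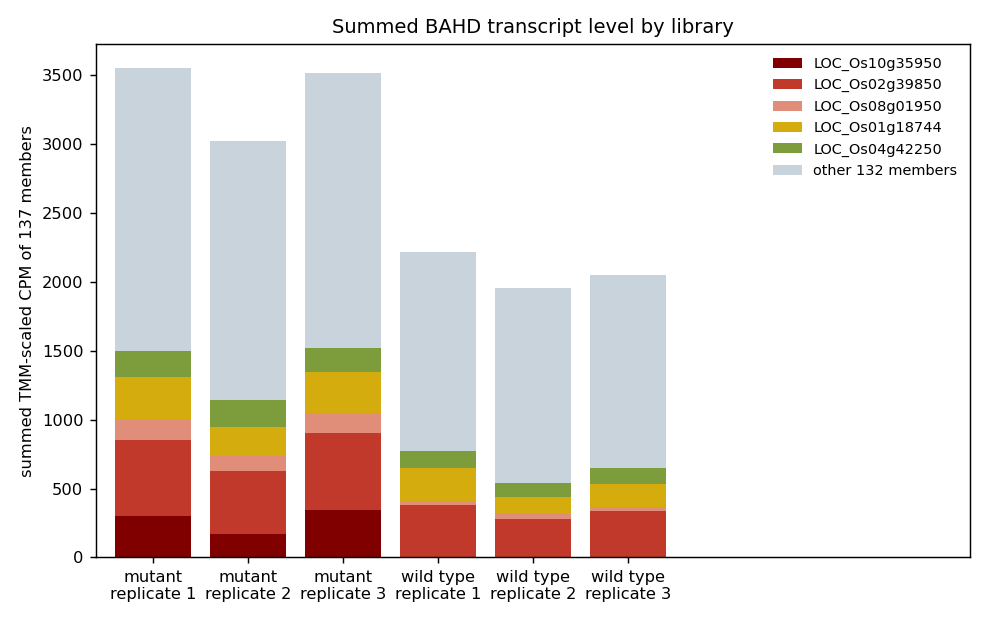
Summed TMM-scaled CPM of the 137 genes in each library, mutant libraries on the left and wild type on the right, with the 5 genes of the largest difference in mean CPM drawn separately. The mutant bars reach 3026 to 3549 CPM and the wild type bars 1956 to 2215 CPM, and the segment of LOC_Os10g35950 is tall in the mutant bars and too thin to see in the wild type bars.

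A few genes carried most of the family's transcripts in both genotypes. To compare genes with each other, counts were divided by the deposited gene length and scaled to one total per library, which gives TPM, a level per unit of length. These TPM are not TMM-scaled, so they rank genes within a genotype and are not used for the difference between genotypes. The 6 highest genes held 52.0% of the family's summed TPM in the mutant and 64.8% in wild type.

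In mutant root tips the highest was LOC_Os02g39850 with 426 ± 49.0 TPM, and its lowest library lay above every library of the next gene. LOC_Os01g09010 followed with 294 ± 16.3 TPM, LOC_Os01g18744 with 249.7 ± 49.0 TPM and LOC_Os10g35950 with 240.0 ± 81.0 TPM, and neighbours in this order overlapped between libraries, as LOC_Os10g35950 did with the next. LOC_Os01g42880 had 163 ± 8.66 TPM and LOC_Os04g42250 134 ± 5.92 TPM, and these did not overlap each other (SD, n = 3 each). In wild type root tips LOC_Os01g09010 stood first with 255 ± 24.3 TPM and LOC_Os02g39850 second with 239.7 ± 54.2 TPM, with overlapping libraries. LOC_Os01g42880 with 157 ± 9.07 TPM, LOC_Os01g18744 with 146 ± 60.9 TPM, LOC_Os01g42870 with 129 ± 3.11 TPM and LOC_Os01g01520 with 96.3 ± 11.9 TPM came next. The libraries of LOC_Os01g18744 ran from 90.1 to 211 TPM in wild type and overlapped those of LOC_Os02g39850 above and LOC_Os01g01520 below, so its place in the order is not fixed. The 6 highest genes of each genotype had 4 in common. LOC_Os10g35950 ranked 4 in the mutant and 33 in wild type, while LOC_Os01g42870 ranked 8 in the mutant and 5 in wild type.

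The most abundant genes of wild type, and LOC_Os04g42250, which ranked 6 in the mutant and 7 in wild type, either rose by less than 2-fold or did not pass. LOC_Os02g39850 (chromosome 2, 24080704 to 24084764) had 548, 457 and 558 CPM in mutant replicates 1 to 3, against 378, 277 and 329 CPM in wild type replicates 1 to 3. Every mutant library lay above every wild type library, with a log2 fold change of 0.67 ± 0.14 (SE; adjusted p = 0.00331, edgeR quasi-likelihood). LOC_Os04g42250 (chromosome 4, 24993831 to 24999600) had 188, 193 and 178 CPM in the mutant, against 122, 98.8 and 116 CPM in wild type. Its groups did not overlap either, and it rose by 0.73 ± 0.11 (adjusted p = 0.000403, edgeR). LOC_Os01g18744 (chromosome 1, 10561328 to 10565325) had 308, 214 and 293 CPM in the mutant, against 241, 119 and 169.9 CPM in wild type. Mutant replicate 2 fell below wild type replicate 1, and the rise of 0.62 ± 0.23 passed narrowly (adjusted p = 0.0458, edgeR). That call was lost with upper-quartile scaling (0.0653) and without mutant replicate 1 or 3 or wild type replicate 2 or 3 (0.122 to 0.153).

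The other leading genes of wild type did not pass. LOC_Os01g09010 (chromosome 1, 4527986 to 4532893) had 376, 345 and 363 CPM in the mutant, against 364, 357 and 336 CPM in wild type, with a log2 fold change of 0.04 ± 0.11 (SE). LOC_Os01g01520 (chromosome 1, 270145 to 275084) had 110.3, 138 and 124 CPM in the mutant, against 132, 120.4 and 120.0 CPM in wild type. Both pairs of groups overlapped. The neighbouring genes LOC_Os01g42870 and LOC_Os01g42880, which start 2.45 kb apart on the same strand, did not pass either. LOC_Os01g42870 had 149, 128 and 137 CPM in the mutant and 142, 172 and 159 CPM in wild type, a log2 fold change of -0.19 ± 0.11. LOC_Os01g42880 had 185, 172 and 187 CPM in the mutant and 196, 206 and 191 CPM in wild type, a log2 fold change of -0.13 ± 0.10. The mutant values of LOC_Os01g42880 all lay below its wild type values by a margin that did not pass. The 4 adjusted p-values ran from 0.187 to 0.986 (edgeR quasi-likelihood).

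The largest rise in absolute level was that of LOC_Os10g35950 (chromosome 10, 19213622 to 19216326). It had 302, 169 and 343 CPM in mutant replicates 1, 2 and 3, against 5.19, 5.34 and 6.05 CPM in wild type replicates 1, 2 and 3. The wild type values lay close together and the lowest mutant library was far above them, with a log2 fold change of 5.62 ± 0.27 (SE; adjusted p = 2.5e-07, edgeR quasi-likelihood). LOC_Os08g01950 (chromosome 8, 594453 to 598041) had 155, 108 and 149 CPM in the mutant, against 28.3, 36.8 and 27.7 CPM in wild type, a rise of 2.15 ± 0.17. LOC_Os07g04970 (chromosome 7, 2187378 to 2188939) had 71.8, 79.7 and 80.5 CPM in the mutant, against 11.2, 10.5 and 9.78 CPM in wild type, a rise of 2.88 ± 0.12. Neither gene's groups overlapped. Adjusted p-values of the last 2 were 3.9e-06 and 1.41e-07 (edgeR quasi-likelihood).

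Among the 37 higher genes, 15 had a wild type mean below 1 CPM, and these rose with a median of 5.22 on the log2 scale. That median is the value of 1 gene, LOC_Os04g42830, chosen after its values were seen, which had 5, 0 and 0 counts in wild type. Its value was 4.65 without wild type replicate 2. Without wild type replicate 1 no wild type counts remain, so the fold then has no measured size. Setting the 2 genes with 0 wild type counts at their lower bounds could not move the median, because both bounds lie above it. The other 13 rose by 1.46 to 7.07. Large folds are partly built in here, because the genes were selected by a low wild type level and by a call. Without selection by call, the median was 3.74 for the 19 tested acyltransferase genes at that level. It was 1.85 for all tested genes there. Both sets had still passed the count filter, which a gene nearly silent in wild type could pass only through its mutant libraries. LOC_Os06g08640 (chromosome 6, 4301557 to 4303121) had 44.0, 31.2 and 36.4 CPM in the mutant, against 0.617, 0.523 and 0.270 CPM in wild type, a log2 fold change of 6.28 ± 0.26 (SE). LOC_Os10g23820 (chromosome 10, 12214879 to 12216579) had 37.2, 15.2 and 26.0 CPM in the mutant, against 0.514, 1.10 and 0.432 CPM in wild type, a change of 5.24 ± 0.41. In both, every mutant library lay at least an order of magnitude above every wild type library. LOC_Os04g51980 (chromosome 4, 30860607 to 30863364) had 13.4, 10.8 and 19.8 CPM in the mutant, against 0.668, 0.575 and 0.162 CPM in wild type, a change of 4.94 ± 0.40. LOC_Os06g05790 (chromosome 6, 2631869 to 2635262) had 3.84, 3.09 and 4.04 CPM in the mutant, against 0.411, 0.575 and 0.108 CPM in wild type, a change of 3.30 ± 0.47. The groups did not overlap for either gene, and the 4 adjusted p-values ran from 1.41e-07 to 0.000285 (edgeR quasi-likelihood).

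For the rarest wild type transcripts the fold is limited by the wild type counts. LOC_Os08g07730 (chromosome 8, 4325887 to 4329768) had 69, 110 and 91 counts in mutant replicates 1 to 3 and 0 in all 3 wild type libraries, which made it at least 94.0-fold higher with the wild type group set to a floor of 3 counts. LOC_Os07g36560 (chromosome 7, 21854727 to 21856897) had 80, 31 and 38 counts in the mutant and 0 in wild type, at least 51.9-fold higher on the same floor. Both bounds follow the remaining wild type depth: without wild type replicate 1, 2 or 3 they were 62.0 to 63.6 and 34.2 to 35.1. LOC_Os11g13970 (chromosome 11, 7745980 to 7747416) had 375, 190 and 396 counts in the mutant and 0, 2 and 5 in wild type, a log2 fold change of 7.07 ± 0.50 (SE), which was 6.46 without wild type replicate 1 and 8.18 without wild type replicate 3. LOC_Os07g36560 was also lower without mutant replicate 1, at least 36.3-fold. The 3 adjusted p-values ran from 2.34e-06 to 0.000197 (edgeR quasi-likelihood). Such floors and intervals cover counting error only, since the labels mention no molecular identifiers and copies made by PCR would then count again.

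Of the other higher genes, 11 had a wild type mean from 1 to 20 CPM and rose by 0.47 to 5.62 with a median of 1.70, and 11 had a wild type mean of 20 CPM or more and rose by 0.41 to 2.15 with a median of 0.89. Mutant libraries all exceeded wild type libraries for 34 of the 37 higher genes, which were 15, 10 and 9 genes of the groups from low to high wild type level. A call already favours such separation, so this count is no further evidence of a rise. The share over all genes called higher was not counted. Among the 37, the exceptions were LOC_Os01g18744 and, chosen after their values were seen, LOC_Os06g39390 and LOC_Os01g08380. Among the smallest rises, LOC_Os11g07960 (chromosome 11, 4128529 to 4130571) had 113, 179 and 99.1 CPM in the mutant, against 37.9, 79.2 and 66.2 CPM in wild type, a log2 fold change of 1.09 ± 0.27 (SE). LOC_Os06g39470 (chromosome 6, 23438875 to 23440545) had 59.2, 48.1 and 61.6 CPM in the mutant, against 34.5, 27.4 and 29.1 CPM in wild type, a change of 0.89 ± 0.13. Both kept their call when any 1 library was left out.

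The 2 smallest rises did not hold under most of those omissions. LOC_Os04g51660 (chromosome 4, 30608765 to 30610406) had 22.0, 26.5 and 20.9 CPM in the mutant, against 14.6, 19.2 and 16.4 CPM in wild type, a log2 fold change of 0.47 ± 0.15 (SE; adjusted p = 0.0303, edgeR quasi-likelihood). Its call was lost with upper-quartile scaling (0.0557) and without mutant replicate 1 or 2 or wild type replicate 1 or 3 (0.0572 to 0.131). LOC_Os09g25460 (chromosome 9, 15251886 to 15256328) had 36.6, 36.8 and 53.1 CPM in the mutant, against 33.2, 30.3 and 32.0 CPM in wild type, a change of 0.41 ± 0.15 (adjusted p = 0.0479, edgeR). One mutant library stood well above the other two. The call was lost with RLE scaling (0.0515), upper-quartile scaling (0.0723), DESeq2 (0.051) and limma voom (0.0577), and without mutant replicate 3 (0.186) or any 1 wild type library (0.0632 to 0.141).

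**Figure D3:**
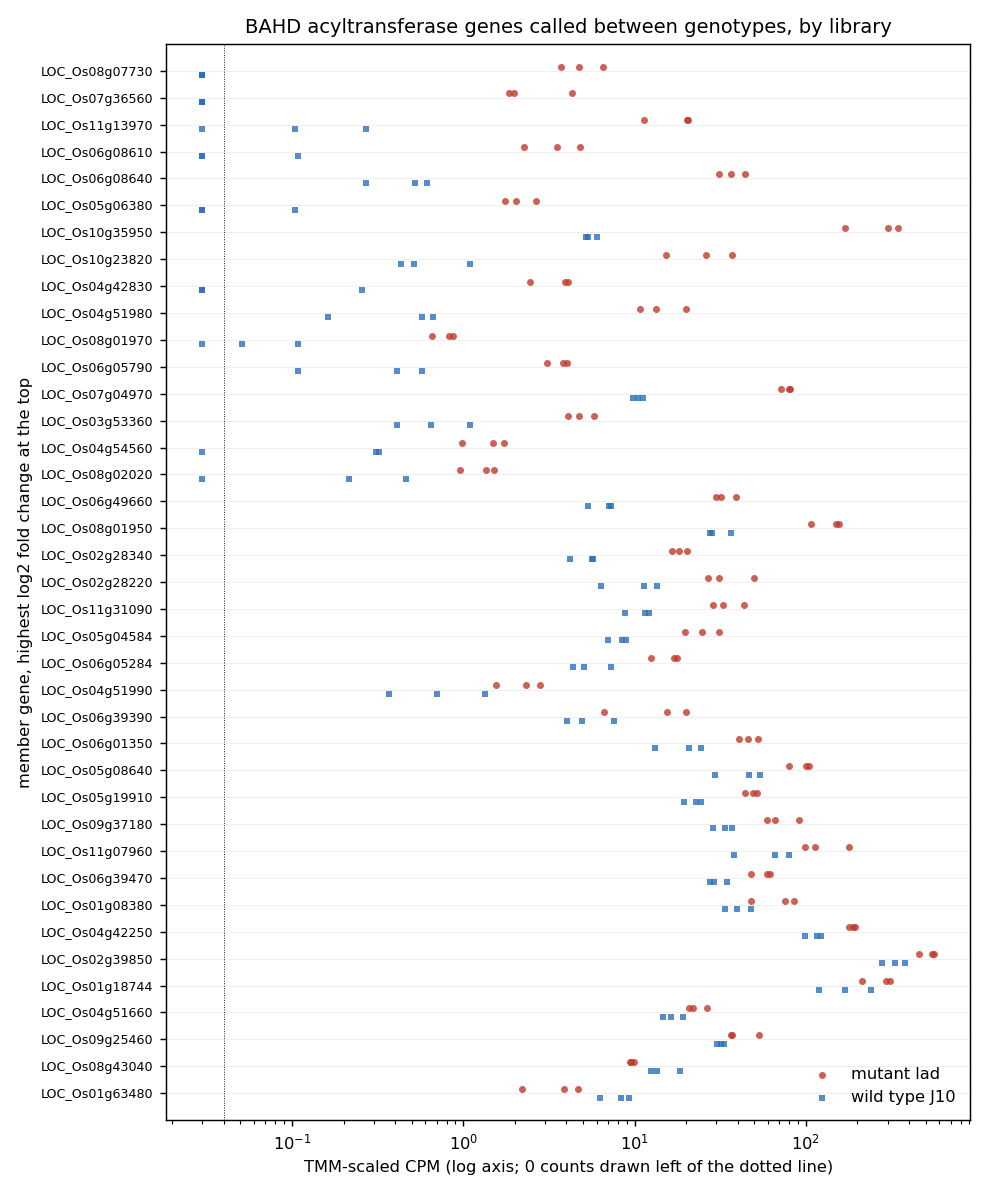
TMM-scaled CPM (log axis) in each library for the 39 called acyltransferase genes, ordered by log2 fold change, with mutant libraries as red circles and wild type libraries as blue squares drawn just below. The genotypes are far apart in the upper rows, where wild type libraries hold few or 0 counts, and close in the lower rows, and the 2 lowest rows are the genes that fell.

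Only 2 acyltransferase genes were called lower in the mutant by this fit. LOC_Os01g63480 (chromosome 1, 36794890 to 36797406) had 4.65, 2.20 and 3.89 CPM in mutant replicates 1 to 3, against 6.27, 9.26 and 8.32 CPM in wild type replicates 1 to 3. It fell by 1.15 on the log2 scale, with an SE of 0.29 (adjusted p = 0.00834, edgeR quasi-likelihood). LOC_Os08g43040 (chromosome 8, 27202271 to 27204914) had 9.41, 9.57 and 9.89 CPM in the mutant, against 18.5, 13.6 and 12.4 CPM in wild type, a change of -0.63 ± 0.18 (adjusted p = 0.017, edgeR). The groups of both genes did not overlap, but the second call was lost without mutant replicate 1 (0.0551). The 17 tested genes that did not pass had log2 fold changes from -0.67 to 0.60 with a median of 0.00, and 13 of them had a wild type mean of at least 1 CPM.

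The family was partly clustered along the chromosomes. With neighbouring starts at most 50 kb apart, 38 of the 137 genes lay in 9 arrays of 3 to 6 genes on chromosomes 1, 2, 4, 6, 8, 10 and 12. Of these 38 genes 11 were tested, of which 9 rose (81.8%), 0 fell and 2 did not pass. Of the other 99 genes 45 were tested, of which 28 rose (62.2%) and 2 fell. Over all tested genes 24.9% were higher and 20.3% lower. Most of the 9 had a wild type mean below 1 CPM, against a minority of the 28 outside arrays. At that wild type level 56.7% of all tested genes were higher. Whether the shares inside and outside arrays differ was not tested. Neighbouring genes of a family can be near-identical copies, and the sources do not say how reads were shared between copies, so values within arrays are uncertain to that extent.

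The 5 arrays with a called gene also held genes too rare to test. In the chromosome 8 array (594453 to 657391), 6 genes on one strand, 3 were tested and all 3 rose, while the other 3 had counts too low to test. LOC_Os08g01950, described above, was the most abundant, and the other 2, chosen after their values were seen, were LOC_Os08g01970 and LOC_Os08g02020. LOC_Os08g01970 had 16, 11 and 16 counts in the mutant against 1, 0 and 2 in wild type, a ratio of 14.98 (exact 95% counting interval 4.79 to 75.5) that was 9.96 without wild type replicate 2 and 30.4 without wild type replicate 3. LOC_Os08g02020 had 25, 16 and 29 counts in the mutant against 9, 0 and 4 in wild type, a log2 fold change of 2.45 ± 0.72 (SE) that was 3.46 without wild type replicate 1 and 1.86 without wild type replicate 2. The call for LOC_Os08g02020 was lost without mutant replicate 1 or 3 or wild type replicate 3 (adjusted p up to 0.0699, edgeR quasi-likelihood). In the chromosome 2 array (16678144 to 16751771), LOC_Os02g28220 had 26.9, 49.995 and 31.0 CPM in the mutant, against 13.5, 6.33 and 11.4 CPM in wild type. LOC_Os02g28340, chosen after its values were seen, had 16.5, 20.1 and 18.1 CPM in the mutant, against 4.22, 5.70 and 5.62 CPM in wild type. These genes, 47.9 kb apart, had log2 fold changes of 1.79 ± 0.29 and 1.81 ± 0.18 (SE), and of the other 4 genes of the array none was tested and 2 had 0 counts throughout.

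The array on chromosome 6 from 4268969 to 4303121 held LOC_Os06g08640 and, 14.8 kb before it on the other strand, LOC_Os06g08610, chosen after its values were seen. LOC_Os06g08610 had 89, 38 and 68 counts in the mutant and 0, 0 and 2 in wild type, a ratio of 102 with an exact 95% counting interval from 27.8 to 847. Both wild type counts lay in replicate 3, without which the gene was at least 45.9-fold higher, and without wild type replicate 1 or 2 the ratio was 67.2 or 67.8. In the second array of chromosome 6 (2380595 to 2396562) LOC_Os06g05284 rose, with 17.0, 12.4 and 17.7 CPM in the mutant, against 7.25, 4.34 and 5.08 CPM in wild type, while its 3 neighbours were too rare to be tested. LOC_Os04g54560 rose in the chromosome 4 array, with 1.73, 1.49 and 0.984 CPM in the mutant against 0.309, 0 and 0.324 CPM in wild type, a log2 fold change of 2.69 ± 0.70 that was 2.10 without wild type replicate 2.

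The remaining arrays held no called gene. LOC_Os01g15740, in the chromosome 1 array (8821136 to 8856953), had 19.9, 7.91 and 15.8 CPM in the mutant, against 21.6, 20.7 and 21.1 CPM in wild type (adjusted p = 0.12, edgeR quasi-likelihood). Its mutant libraries all lay below its wild type libraries. The call for a lower level passed without mutant replicate 1 (0.0364). LOC_Os10g01650, in a chromosome 10 array (431802 to 472415), had 11, 6 and 10 counts in the mutant and 20, 7 and 18 in wild type, with overlapping groups (adjusted p = 0.335, edgeR). The second array of chromosome 10 had 2 counts in the mutant and 0 in wild type over its 3 genes, and the chromosome 12 array had 1 count in the mutant and 0 in wild type over its 5 genes. The 9 arrays also span 41 genes of other descriptions, of which 3 were tested and 1 rose.

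**Figure D4:**
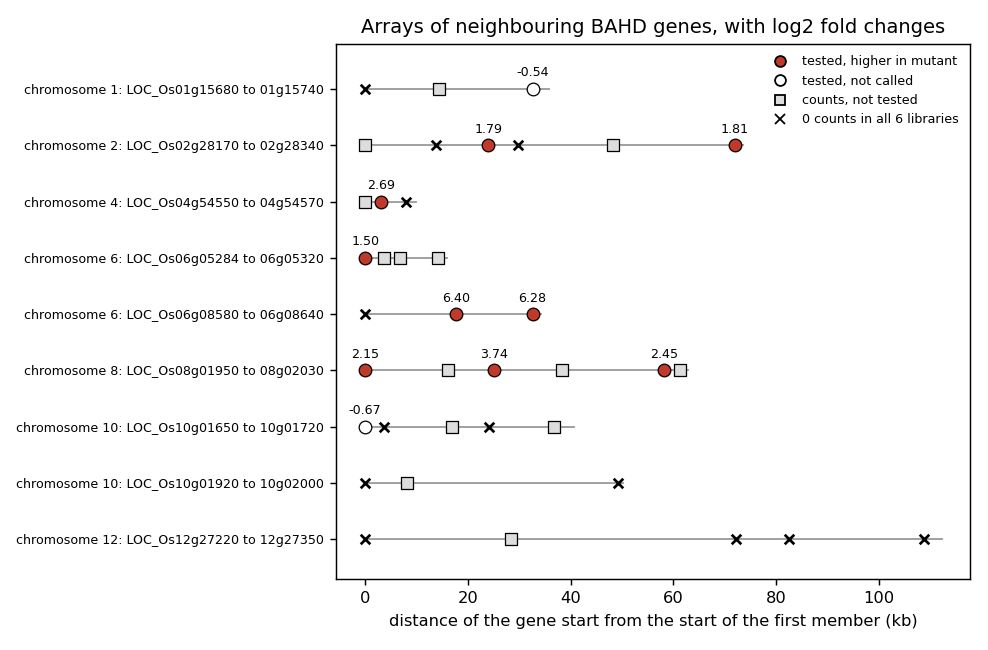
The 9 arrays of neighbouring acyltransferase genes, with each gene at the distance of its start from the start of the first gene (kb) and tested genes marked with their log2 fold change, mutant over wild type. Red circles are the 9 genes that rose, open circles the 2 that did not pass, grey squares genes with too few counts to test and crosses genes with 0 counts in all 6 libraries.

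Detection was tallied by chromosome and gene length, and no difference between tallies was tested. Over all genes 26432 of 56962 had 0 counts in every library and 39.7% were tested. In the family 42 of 137 had 0 counts and 40.9% were tested. On chromosome 12 none of the 7 genes was tested and 6 had 0 counts in every library, and 5 of the 7 form 1 array. On chromosome 10, which holds 20 of the genes, 10 had 0 counts, near the share over all genes, and 5 were tested. Of 19 genes with a deposited length below 1000 bases 14 had 0 counts and 1 was tested, against 28 and 55 of the 118 longer ones. Shares by length over all genes were not counted. The family's median length was 1530 bases. Of the 39 genes with counts that were not tested, the most abundant had 71 counts over all libraries, and together they had 373 counts in the mutant and 220 in wild type. Among them 14 had counts in the mutant only and 6 in wild type only.

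A further 2 loci outside the locus series are described by the protein-family name PF02458, Transferase family, and do not meet the rule used for the 137. The first (chromosome 1, 40508580 to 40511163) had 27.6, 12.5 and 44.5 CPM in the mutant, against 1.70, 0.942 and 1.19 CPM in wild type. It rose by 4.46 ± 0.45 on the log2 scale (SE; adjusted p = 2.66e-05, edgeR quasi-likelihood). The second (chromosome 1, 30848646 to 30849947) had 8.66, 9.81 and 11.3 CPM in the mutant, against 8.12, 7.38 and 7.997 CPM in wild type, and did not pass (adjusted p = 0.141, edgeR).

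Families that hold enzymes making donors and acceptors for BAHD enzymes were counted by description in the same fit. The shares over all tested genes, 24.9% higher and 20.3% lower, are the background for these counts. AMP-dependent synthetases and ligases, the family that holds 4-coumarate:CoA ligases and other makers of acyl-CoA thioesters, numbered 36 tested genes, of which 23 rose and 3 fell, with a median log2 fold change of 0.57. The most abundant, LOC_Os02g32490, averaged 296 ± 18.9 CPM in the mutant and 227 ± 12.1 CPM in wild type (SD, n = 3 each; adjusted p = 0.014, edgeR quasi-likelihood). Of 19 tested genes described as O-methyltransferases, 9 rose and 1 fell (median 0.64). That description covers families 2 and 3, and only some such enzymes methylate caffeate units. The most abundant of them, LOC_Os08g38900, averaged 958 ± 142 CPM in the mutant and 775 ± 16.2 CPM in wild type and did not pass (adjusted p = 0.0881, edgeR), while LOC_Os08g06100 rose, with 896 ± 125 CPM in the mutant and 583 ± 132 CPM in wild type. Of 23 genes for amino acid decarboxylases and polyamine synthesis, some of which make amine acceptors, 13 rose and 4 fell (median 0.80). Among these LOC_Os06g04070, described as an ornithine, diaminopimelate or arginine decarboxylase, averaged 823 ± 32.3 CPM in the mutant and 352 ± 35.3 CPM in wild type. Next by level were LOC_Os07g22600 and LOC_Os04g42090, which did not pass (log2 fold changes -0.34 and -0.18). The 1 gene described as an aromatic amino acid lyase, the class that opens the phenylpropanoid pathway, fell, with 67.0 ± 7.78 CPM in the mutant and 94.5 ± 12.5 CPM in wild type. A single matched gene does not stand for that step, and lyase genes under other descriptions were not counted.

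Genes described as FAE1/Type III polyketide synthase-like, a family that holds both fatty acid elongases and chalcone synthases, rose in 9 of 12 tested cases and fell in 1. Of the 12, 8 rose by 4-fold or more, beside 8.37% of all tested genes. The most abundant, LOC_Os05g49290, did not pass (log2 fold change 0.08), and the next, LOC_Os06g39750, fell (-0.50). The list summed to 289 to 311 CPM in mutant libraries and 231 to 242 CPM in wild type libraries. Acyltransferases of other families were counted too. Serine carboxypeptidase-like genes, some of which use sugar esters as acyl donors, rose in 17 and fell in 5 of 35 tested cases (median 0.17). Among 30 GNAT-domain genes, N-acetyltransferases of another fold, 5 rose and 8 fell (median -0.16). Of 12 phospholipid and glycerol acyltransferases 4 rose and 0 fell, and of 10 lipid and wax O-acyltransferases 4 rose and 1 fell. Beside these, 79 of 147 tested cytochrome P450 genes rose and 21 fell (53.7% and 14.3%), and 49 of 102 UDP-glycosyltransferase genes rose and 12 fell (48.0% and 11.8%). Those are lower shares of increases than the 66.1% of the acyltransferases, a difference that was not tested. The median log2 fold change was 1.15 for the P450 genes and 0.73 for the UDP-glycosyltransferase genes, against 1.11 for the acyltransferases. Rises of 4-fold or more were called for 54 of the 147 and 29 of the 102, against 18 of the 56 acyltransferases. The AMP-dependent list had 63.9% higher and the FAE1/Type III list 75.0%, so a large share of increases was not particular to the acyltransferases.

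**Figure D5:**
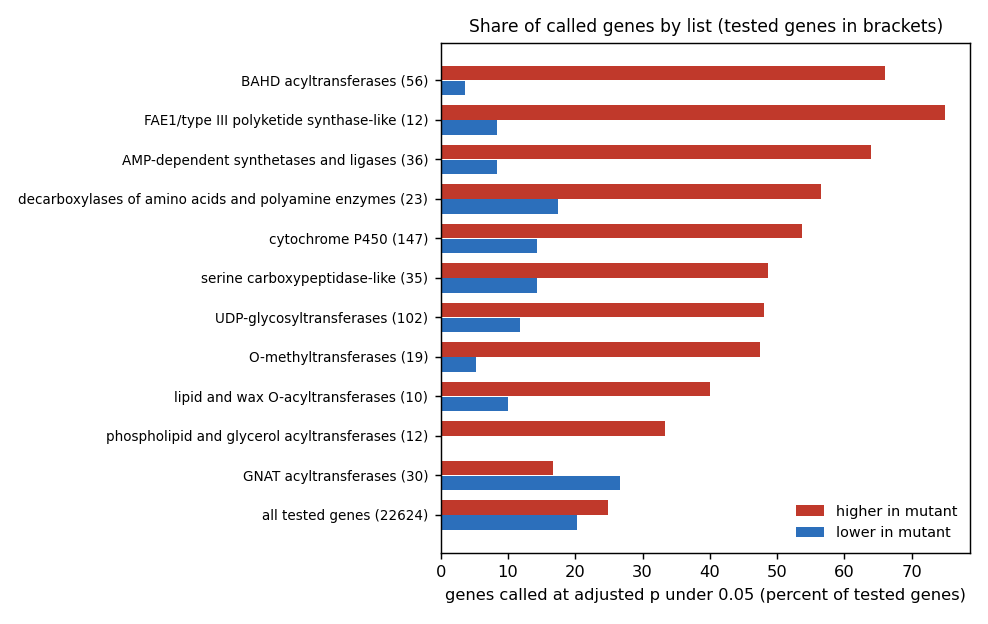
Percent of tested genes called higher (red) or lower (blue) in the mutant, with the number of tested genes in brackets. Shown are the BAHD acyltransferases, 10 other lists of genes matched by description and all tested genes. The acyltransferases stand at 66.1% higher and 3.57% lower, all tested genes at 24.9% and 20.3%, and the GNAT-domain genes are the one list shown with more lower than higher genes.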

How the data were processed

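Read counts per gene were deposited as 1 table for 6 libraries, with coordinates, length and description of each gene. Its values are whole numbers with different totals and were taken as raw counts, which the values alone do not prove. Per the submitters' processing notes Bowtie 0.12.2 was used, with 2 mouse assemblies. Those cannot be the source of rice loci. The rice build, counting tool and strand setting are not given in the files or labels. Coordinates are therefore printed as deposited, without a build.

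Counts were fitted with edgeR 4.0.16 in R 4.3.3. The expression filter used the group, TMM factors ran from 0.924 to 1.04, and genotype was the only term. Tests were two-sided, with Benjamini-Hochberg adjustment over 22624 genes and a threshold of 0.05. Standard errors are the absolute log2 fold change over the square root of F. TPM were computed from counts and the deposited gene length. The fit was tested on simulated counts with known changes. Few genes were changed there, equally up and down, so that test does not bear on scaling where many genes change. DESeq2 1.42.0, limma 3.58.1 (voom), other scalings, filters, a replicate block and omission of each library were the alternatives. Of the 137 genes, 2 overlap another gene, and neither was tested.

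Named genes were, of each genotype, the 6 with the highest TPM; called genes of at least 2 CPM without overlap between genotypes, the 8 highest and 8 lowest by fold change; called genes with 0 wild type counts; the most abundant tested gene of each array; and the 4 most abundant genes not called. The members and lists were chosen with earlier results of these data known. Description lists for chalcone synthases, wall acetyltransferases and the chloramphenicol acetyltransferase fold matched no gene.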

Additional observations from a re-analysis of the deposited data

How the results depend on the processing

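The count of acyltransferase genes called higher, 37 in the edgeR fit, was 34 to 39 under RLE, upper-quartile and library-total scaling, both other filters, DESeq2, limma voom and the replicate block, and 32 to 37 when 1 library was left out. Restricted to genes with a wild type mean of at least 1 CPM, an alternative chosen after seeing the data, it was 22. The count called lower was 2 or 3 throughout, genes at least 4-fold higher 16 to 21 and calls over all genes 7804 to 11191. With upper-quartile factors 49.3% of all called genes were higher, against 55.2% with TMM and 63.1% with library totals, and library totals moved the median log2 fold change of all tested genes to 0.11. The mutant over wild type log2 ratio of the summed CPM was 0.58 to 0.79 in place of 0.70. The labels do not say whether replicate numbers pair the samples. Correlations of deviations between libraries of the same number were 0.0572, 0.129 and -0.0317 for numbers 1, 2 and 3. Libraries of different numbers were not compared in this way, so a pairing was not settled. Calls over all genes numbered 10648 with the replicate block and 10229 without it. With the replicate block 37 genes were called higher and 3 lower, the added one being LOC_Os01g15740. Of the genes named by rule, 2 uncalled ones near 0 changed sign, and calls lost for 4 others are given beside their values. LOC_Os01g09010 had -0.025 with upper-quartile factors, and -0.0279 to 0.0652 when 1 library was left out. LOC_Os01g01520 had -0.00884 with RLE, -0.0576 with upper-quartile factors, -0.00365 with no filter, -0.0089 with DESeq2, -0.00132 with voom and -0.00169 with the replicate block, and -0.0831 to 0.0815 when 1 library was left out. The cause was not tested.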
